A study of Mus musculus with 6 samples.

Results

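The regions described here are uterine sites where estrogen receptor alpha (ERα) was called after tamoxifen in both wild-type and AF-2 mutant mice and after fulvestrant in neither genotype. They were chosen from the peak lists themselves: all peaks of the 6 lists were merged wherever they overlapped by at least 1 bp, and a region was kept when it held a tamoxifen peak of each genotype and no fulvestrant peak, whether or not a vehicle peak was present. This gave 725 of 65146 merged regions, or 1.11%. Which tamoxifen and fulvestrant lists hold them is therefore fixed by the choice and is given only as a description.

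The binding maps came from chromatin immunoprecipitation and sequencing (ChIP-seq) with an ERα antibody on the uterus of ovariectomized C57BL/6J females aged 12 weeks. In each genotype, wild-type littermate or ERα AF-2 mutant (Af2KI, also written AF2ERKI in the labels), 1 group received fulvestrant (ICI182780) at 2 mg/kg, 1 group tamoxifen at 2 mg/kg, and 1 group 50 µl of DMSO, the vehicle of both ligands, all intraperitoneally 1 h before the tissue was taken. All 6 groups were thus ovariectomized and exposed to DMSO, and the sample titles carry a code, E1h, whose meaning the labels do not give. It may stand for the 1 h of treatment, as it is read here, or for an estrogen given beside the treatments, which the protocol does not mention. In the second case the vehicle lists would not show binding without estrogen. Each group was 1 library from 6 pooled uteri, so the whole organ was measured and no spread between animals or libraries is available. The labels do not state which residues are altered in the mutant receptor or in which uterine cells binding took place.

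ERα is a nuclear receptor that binds DNA as a dimer at estrogen response elements and also reaches DNA through other transcription factors. It activates transcription through AF-1 in its amino-terminal part and through AF-2, a surface of the ligand-binding domain that takes up coactivators when an agonist is bound. Tamoxifen, a triphenylethylene, places a side chain so that AF-2 is blocked while AF-1 can still act, and in the uterus it is known for partial agonist activity. Fulvestrant is a steroidal antagonist with a long alkyl side chain that blocks AF-2, hinders AF-1 activity and leads to loss of the receptor protein.

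Wild-type lists held 37327 tamoxifen, 26482 fulvestrant and 3712 vehicle peaks, and mutant lists 36538, 45837 and 5027. Each peak is 200 bp wide, with no height or score, and read depth is unknown. A region that is missing from a list was not called there, which does not show that the receptor was absent. Peaks of the same list lay at least 261 bp apart from start to start, and each of the 725 regions held exactly 1 tamoxifen peak per genotype. All positions are in mm9, counted from 1. No mm9 genome or gene annotation was used, so that neither sequences nor genes are named for these sites.

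Tamoxifen binding shared by the genotypes was rarely free of fulvestrant peaks. Of 23955 regions with tamoxifen peaks of both genotypes, 15144 (63.2%) also held fulvestrant peaks of both genotypes, 7644 (31.9%) the mutant fulvestrant peak only, and 442 (1.85%) the wild-type fulvestrant peak only. The remaining 725 (3.03%) make up the set. The longer, mutant fulvestrant list was the one that most limited it: 1167 of the shared tamoxifen regions lacked a mutant fulvestrant peak, and 725 of these (62.1%) also lacked a wild-type one, whereas 8369 lacked a wild-type fulvestrant peak and only 8.66% of those were free of a mutant one. Seen from each tamoxifen list, the set took up 1.94% of the wild-type peaks and 1.98% of the mutant peaks. The reverse combination, fulvestrant peaks of both genotypes without tamoxifen, comprised 989 regions, or 5.11% of the 19355 regions with both fulvestrant peaks.

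Most of the 725 regions were small and simple. In 630 of them the merged region consisted of the 2 tamoxifen peaks alone, 77 also held 1 vehicle peak and 18 held a vehicle peak of each genotype. Their width ran from 200 to 534 bp with a median of 221 bp. Example regions, drawn in the map of called peaks, show the range of arrangements. The region at chr2:149713269-149713477 has tamoxifen peaks 9 bp apart and no other peak close by, and that at chr6:59282105-59282304 has both tamoxifen peaks at the same position. The region at chr1:138034200-138034457 holds a peak of both vehicle lists as well. At chr19:34644468-34644713 a mutant fulvestrant peak ends at the base before the region starts.

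**Figure D1:**
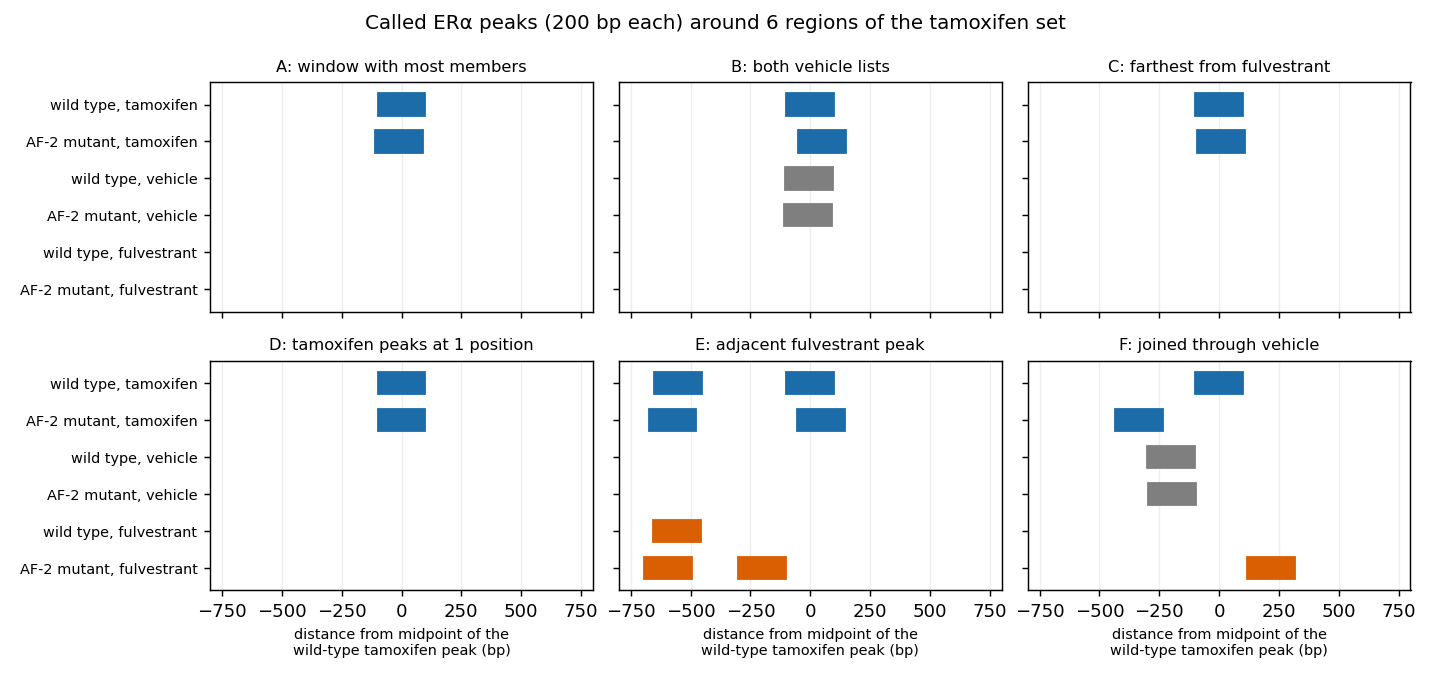
Called ERα peaks of the 6 lists (rows, bars of 200 bp; blue tamoxifen, grey vehicle, orange fulvestrant) around 6 regions of the set, by distance in bp from the midpoint of the wild-type tamoxifen peak. In panels A to D no fulvestrant peak lies in view, and in E a mutant fulvestrant peak touches the region. In F the tamoxifen peaks do not overlap and are joined through the mutant vehicle peak. The wild-type vehicle peak there touches the wild-type tamoxifen peak without overlapping it.

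The choice did not require or bar vehicle peaks, although they took part in the merging and alone joined the tamoxifen peaks of 2 regions. More of these sites held a vehicle peak of the mutant than of the wild type. A mutant vehicle peak lay in 79 of the 725 regions, or 10.9% (exact 95% interval 8.72 to 13.4), against 5.87% of all 63548 regions with a ligand peak. A wild-type vehicle peak lay in 34 regions, or 4.69% (3.27 to 6.49), close to the 5.21% of all ligand regions. At least 1 vehicle peak was present in 95 regions, 13.1% (10.7 to 15.8) against 9.51% of all ligand regions. Among the other shared tamoxifen regions this share was 17.4% (14.0 to 21.3) with the wild-type fulvestrant peak only. It was 9.86% (9.20 to 10.6) with the mutant fulvestrant peak only and 19.8% (19.1 to 20.4) with both fulvestrant peaks. Without the 2 regions joined by vehicle peaks the shares were 10.7% for the mutant and 4.43% for the wild type. No vehicle peak lay in 630 regions, 86.9% (84.2 to 89.3) against 90.5% of all ligand regions, and the choice itself barred fulvestrant peaks. Where the receptor was also called with vehicle, this was more often in the mutant. These intervals cover counting error only. The vehicle lists come from 1 library each, the mutant list is the longer, and regions of a library are not replicates, so no test between libraries was possible.

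Other groups of regions showed how these shares moved with the ligand lists. Among shared tamoxifen regions, the wild-type vehicle share followed the wild-type fulvestrant peak. This share was 4.69% in the set and 5.01% (4.53 to 5.52) in the regions that added only the mutant fulvestrant peak. It was 10.2% (7.52 to 13.4) where the wild-type fulvestrant peak was added and 14.2% (13.6 to 14.8) in regions of all 4 ligand lists. The mutant vehicle share did not follow the mutant fulvestrant peak in this way. It was 10.9% in the set and 10.9% (8.12 to 14.1) with the wild-type fulvestrant peak, against 8.23% (7.62 to 8.87) with the mutant fulvestrant peak and 8.60% (8.16 to 9.06) with both.

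Sites called with tamoxifen in 1 genotype only had fewer vehicle peaks than the set. Regions held by wild-type tamoxifen alone had a wild-type vehicle peak in 1.32% (1.05 to 1.63) and a mutant one in 1.27% (1.01 to 1.58). For mutant tamoxifen alone the shares were 1.82% (1.41 to 2.32) and 6.70% (5.90 to 7.57). The fulvestrant counterpart of the set holds the wild-type fulvestrant peak, yet its shares were also lower. They were 1.52% (0.851 to 2.49) for wild-type vehicle and 4.75% (3.51 to 6.27) for mutant vehicle. How strongly each kind of site was bound is not in the lists, and whether these shares move with peak height was not tested.

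**Figure D2:**
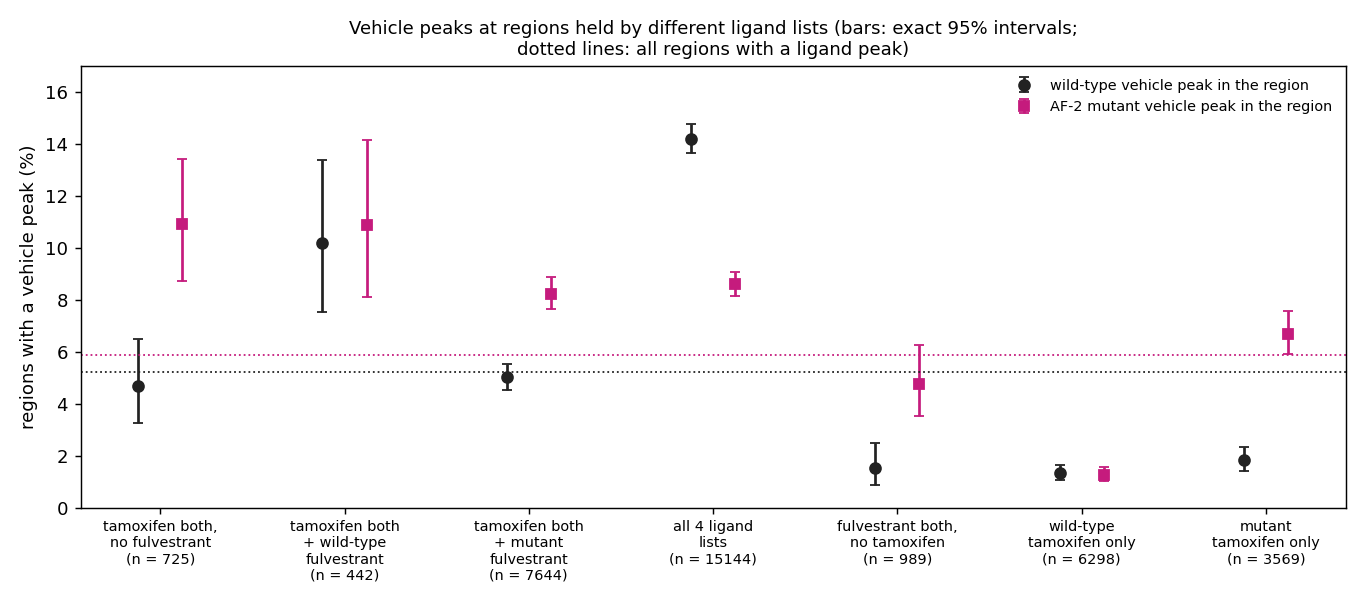
Share of regions (%, vertical axis) that hold a wild-type (black circles) or AF-2 mutant (pink squares) vehicle peak, for 7 combinations of ligand lists; bars are exact 95% intervals and dotted lines the shares over all regions with a ligand peak. In the set, leftmost, the mutant share of 10.9% lies above its line and the wild-type share of 4.69% near its own.

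The vehicle peaks of the genotypes partly coincided within the set. Of the 34 regions with a wild-type vehicle peak, 18 also held a mutant one, or 52.9% (35.1 to 70.2), against 30.2% over all ligand regions. The other way round, 18 of the 79 regions with a mutant vehicle peak also held a wild-type one, or 22.8% (14.1 to 33.6), near the 26.8% of all ligand regions. Among regions of all 4 ligand lists the first share was 21.3% (19.6 to 23.1), among those lacking only the wild-type fulvestrant peak it was 67.4% (62.4 to 72.0), and among those lacking only the mutant one it was 35.6% (21.9 to 51.2). These differences were not tested, and the interval of the set, from 34 regions, is wide. Over all ligand regions both vehicle peaks occurred in 1.57%, and in the set in 2.48% (1.48 to 3.90). The other shared tamoxifen regions had higher shares than the set, all of them within its interval. These were 3.62% (2.08 to 5.81) with the wild-type fulvestrant peak only, 3.38% (2.98 to 3.80) with the mutant one only and 3.03% (2.76 to 3.32) with both.

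A vehicle peak belongs to a region only if it overlaps it, so its distance from the tamoxifen peaks is bounded by the merging and is given as a description. The midpoint of the wild-type vehicle peak lay a median of 25.5 bp from that of the wild-type tamoxifen peak (range 0 to 200 bp, 34 regions), and the mutant vehicle peak a median of 42 bp from the mutant tamoxifen peak (0 to 292 bp, 79 regions). Among the regions with both vehicle peaks, that at chr3:127599041-127599270 had all 4 midpoints within 30 bp and the nearest fulvestrant peak 93.1 kb away. At chr4:44717251-44717489 the tamoxifen peaks were 7 bp apart, with the nearest mutant fulvestrant peak at 51.7 kb and the nearest wild-type one at 202 kb. At chr7:119166764-119166994 they were 19 bp apart, and fulvestrant peaks lay 19.2 kb away in the mutant and 97.5 kb in the wild type. In these 3 regions the receptor was called with vehicle and tamoxifen in both genotypes, and the nearest fulvestrant call lay farther away than the median of the set, 6.95 kb.

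Others of the regions with both vehicle peaks had a fulvestrant call nearer than that median. The region at chr3:8666950-8667483 lay 17 bp from a mutant fulvestrant peak and 45.1 kb from a wild-type one. The region at chr2:118554159-118554401 lay 65 bp from a mutant fulvestrant peak and 23.7 kb from a wild-type one. That at chr3:102008473-102008753 lay 157 bp from a wild-type fulvestrant peak and 11.2 kb from a mutant one. At chr1:138034200-138034457 fulvestrant peaks of both genotypes lay about 2.5 kb away, at 2485 bp for the wild-type and 2518 bp for the mutant list. At chr2:156443390-156443660 the nearest fulvestrant peak, of the wild type, lay 3.69 kb away. The regions at chr5:23356166-23356457 and chr8:27737740-27738025 lay beyond the median, with the nearest fulvestrant peak at 13.2 and 28.4 kb.

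The tamoxifen peaks of the genotypes lay close together but less exactly so than at shared tamoxifen sites with a mutant fulvestrant peak. The midpoints differed by a median of 19 bp (quartiles 8 and 37 bp), they coincided in 15 regions, and 52.8% of regions (49.1 to 56.5) had them within 20 bp. In regions of all 4 ligand lists the median was 11 bp and 74.2% (73.5 to 74.9) were within 20 bp. In those with the mutant fulvestrant peak only the median was 13 bp and the share 69.0% (68.0 to 70.1). Those with the wild-type fulvestrant peak only were like the set, with a median of 22 bp and a share of 47.7% (43.0 to 52.5). The 2 fulvestrant peaks of the reverse combination were farther apart still, with a median of 26 bp and 41.2% (38.1 to 44.3) within 20 bp.

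Neither genotype's tamoxifen peak was shifted to one side. The wild-type peak lay at the higher coordinate in 342 regions and at the lower in 368, with a median difference of -1 bp (wild type minus mutant). The median offset differed little with the vehicle or fulvestrant surroundings. It was 19 bp with a vehicle peak and 19.5 bp without, and 20 bp with a fulvestrant peak within 1 kb and 19 bp without. The share of offsets of 100 bp or more was 6.32% (2.35 to 13.2) with a vehicle peak and 2.54% (1.46 to 4.09) without. With and without a fulvestrant peak within 1 kb it was 3.75% and 2.83%. Offsets of 100 bp or more were seen in 22 regions (3.03%, 1.91 to 4.56), against 1.30% (1.13 to 1.49) in regions of all 4 lists, 1.13% (0.901 to 1.39) with the mutant fulvestrant peak only and 6.33% (4.25 to 9.03) with the wild-type fulvestrant peak only. In 2 regions, chr3:8666950-8667483 and chr16:78576841-78577259, the tamoxifen midpoints were 334 and 219 bp apart, so that the tamoxifen peaks did not overlap each other and only vehicle peaks joined them. These 2 regions meet the rule but do not show tamoxifen binding of both genotypes at the same 200 bp.

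**Figure D3:**
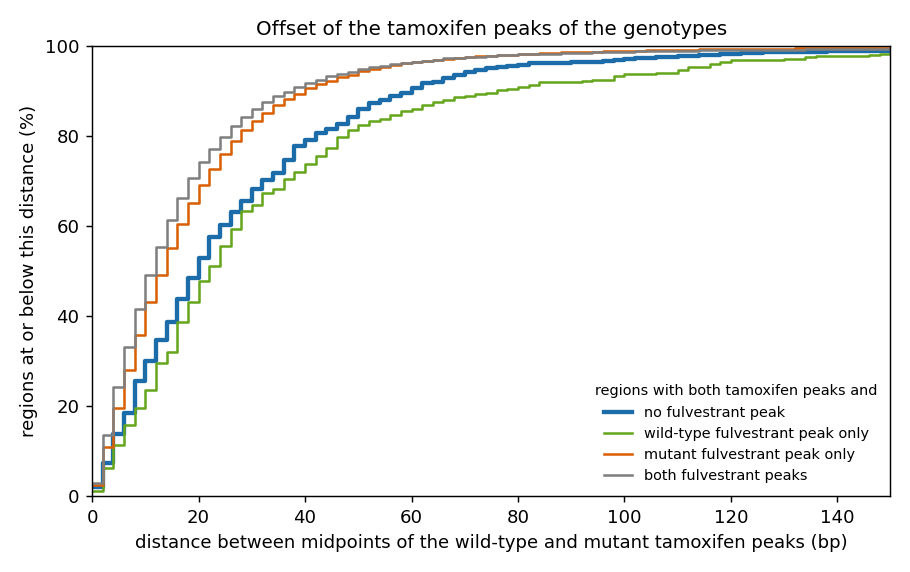
Cumulative share of regions (%, vertical axis) by the distance in bp between the midpoints of the wild-type and mutant tamoxifen peaks, for the 4 kinds of region with both tamoxifen peaks. The curve of the set (thick blue) lies below those of regions with the mutant or both fulvestrant peaks, with a median of 19 bp against 13 and 11 bp.

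Fulvestrant peaks were absent from these regions by choice, but often not far away. The nearest fulvestrant peak of either genotype lay at a median of 6.95 kb, with medians of 16.6 kb for the shorter wild-type list and 8.96 kb for the longer mutant list. It was within 1 kb in 160 regions, or 22.1% (19.1 to 25.3). The same share over all 10592 regions with a tamoxifen and no fulvestrant peak was 17.8%, with 14.3% (13.4 to 15.2) for wild-type tamoxifen alone and 23.0% (21.7 to 24.4) for mutant tamoxifen alone. In 72 regions, or 9.93% (7.85 to 12.3), fulvestrant peaks of both genotypes lay within 1 kb. This share was 6.43% for wild-type tamoxifen alone and 8.63% for mutant tamoxifen alone. Since the choice removed fulvestrant peaks inside the regions, these distances are descriptions.

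At the edge of the rule, 18 regions had a fulvestrant peak within 50 bp. The 5 closest were the region at chr19:34644468-34644713, adjacent to a mutant fulvestrant peak, those at chr3:100029514-100029736, chr5:115001081-115001332 and chr6:47966255-47966489, each 2 bp from a mutant fulvestrant peak and 23, 17 and 37 bp from a wild-type one, and that at chr2:167644417-167644618, 4 bp from a mutant fulvestrant peak and 12.1 kb from a wild-type one. Just outside, the regions at chr1:79996554-79996998 and chr9:63605979-63606454 were left out for fulvestrant peaks that overlapped their other peaks by 6 bp at most. The regions at chr18:21386884-21387287, chr11:99002982-99003415 and chr8:63702617-63703124 were left out for overlaps of 7, 8 and 10 bp. Of the 23230 shared tamoxifen regions with a fulvestrant peak, 25 had an overlap below 50 bp, so few regions stand near the edge on that side.

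**Figure D4:**
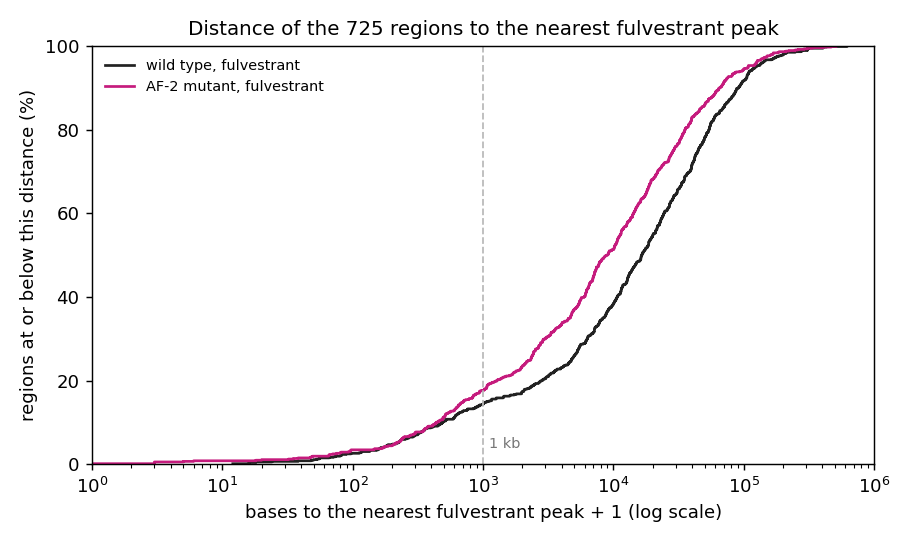
Cumulative share of the 725 regions (%, vertical axis) by the number of bases to the nearest wild-type (black) or mutant (pink) fulvestrant peak, plus 1, on a log axis; the dashed line marks 1 kb. Medians are 16.6 kb for the wild-type and 8.96 kb for the mutant list, and 160 regions have a fulvestrant peak of either genotype within 1 kb.

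At the other end, 22 regions had no fulvestrant peak of either genotype within 100 kb. Such a peak lay within 100 kb of 97.0% of the set (95.4 to 98.1). The same held for 93.6% of regions of wild-type tamoxifen alone and 97.3% of those of mutant tamoxifen alone. The most remote region of the set was chr6:77819443-77819651, at 406 kb from the nearest fulvestrant peak in both genotypes, with tamoxifen peaks 9 bp apart and no vehicle peak. Next came chrX:8470036-8470303, at 307 kb, where the mutant vehicle list also held a peak, then chr6:59282105-59282304 at 222 kb, chrX:97675732-97675946 at 210 kb and chr18:30873418-30873665 at 187 kb. In these 5 regions the tamoxifen peaks of the genotypes were 0 to 48 bp apart.

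The regions lay farther from the common ERα sites than shared tamoxifen regions with a mutant fulvestrant peak did. The nearest region of all 4 ligand lists was at a median of 35.1 kb, and within 10 kb for 23.2% (20.1 to 26.4). For shared tamoxifen regions with the mutant fulvestrant peak the values were 21.2 kb and 35.3% (34.2 to 36.4). Regions of wild-type tamoxifen alone (34.2 kb, 23.6%), of mutant tamoxifen alone (31.5 kb, 24.7%) and of fulvestrant without tamoxifen (31.1 kb, 25.8%) had values near those of the set, and so had shared tamoxifen regions with the wild-type fulvestrant peak (33.4 kb, 24.0%).

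The set was scattered, with few local groups. The 725 regions fell into 706 windows of 100 kb, of which 688 held 1 region, 17 held 2 and 1 held 3. The median distance between neighbours was 1867 kb, and 32 of 705 neighbouring pairs lay within 100 kb. The window with 3 regions was chr2:149700001-149800000, with the regions at chr2:149713269-149713477, chr2:149753948-149754200 and chr2:149785330-149785576, whose tamoxifen peaks were 9, 53 and 47 bp apart. It held 5 tamoxifen peaks in each genotype against 1 wild-type and 2 mutant fulvestrant peaks. In chr2:125400001-125500000 both merged regions belonged to the set, and neither fulvestrant list nor vehicle list had a peak there. The windows were picked by their number of regions of the set, each with a tamoxifen peak per genotype and no fulvestrant peak. Their surplus of tamoxifen over fulvestrant peaks thus follows at least in part from the choice and is a description.

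Other windows with 2 regions of the set were mixed. In chr1:31200001-31300000 the wild type had 3 tamoxifen peaks and 1 fulvestrant peak, and the mutant 2 and 1. In chr1:169900001-170000000 the wild type had 5 tamoxifen and 3 fulvestrant peaks and the mutant 4 of each. In chr3:102000001-102100000 the wild type had 4 tamoxifen and 2 fulvestrant peaks and the mutant 5 and 2. With the fulvestrant-free window on chromosome 2, these were the first along the genome among the 17 with 2 regions.

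All 20 of the chromosomes 1 to 19 and X held regions of the set, from 19 on chromosome 16 to 54 on chromosome 4. As a share of the shared tamoxifen regions of a chromosome they ranged from 2.33% on chromosome 16 to 4.09% on chromosome 3 among the autosomes, where the intervals of all chromosomes held the autosomal share of 2.98% except that of chromosome 3, which began just above it. The X chromosome had the highest share, 25 of 478, or 5.23% (3.41 to 7.62). Put the other way, the X chromosome held 3.45% of the set (2.24 to 5.05) against 2.10% of all ligand regions and 1.90% (1.69 to 2.13) of regions of all 4 lists. Of regions of mutant tamoxifen alone, 3.11% (2.57 to 3.73) were on the X chromosome, and of wild-type tamoxifen alone 2.02% (1.68 to 2.39). For fulvestrant peaks of both genotypes without tamoxifen the share was 2.93% (1.97 to 4.18), within the interval of the set. Per Mb, up to the last peak, the X chromosome held 0.150 regions of the set against 0.283 on the autosomes. The X chromosome was singled out after its value was seen, and its share rests on 25 regions and on the mutant fulvestrant list: without consulting that list it was 2.17%.

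**Figure D5:**
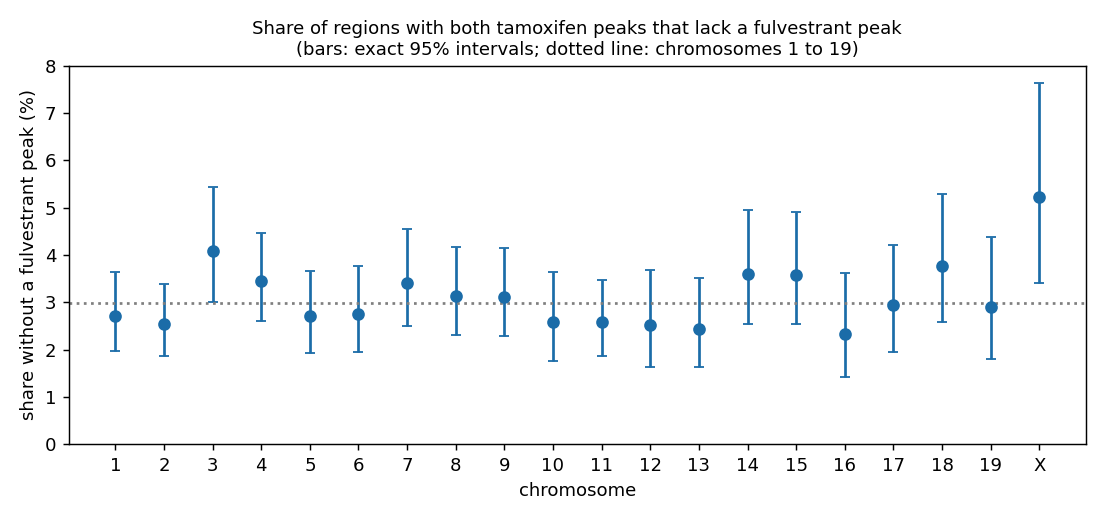
Share (%, vertical axis) of the regions with both tamoxifen peaks that held no fulvestrant peak, by chromosome; bars are exact 95% intervals and the dotted line is the share over chromosomes 1 to 19, 2.98%. The X chromosome is highest at 5.23%, with an interval from 3.41 to 7.62.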

How the data were processed

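ERα ChIP-seq peak lists of 6 libraries were used, 1 per genotype and treatment. Per the submitters' processing notes, the authors worked in mm9 with the aligner Bowtie2 2.1.0, with HOMER 4.10.3, bedtools 2.24.0, SAMtools and Picard. For the threshold of the peak caller, the input and the depth, nothing is stated in the sources. These settings decide whether a weak site enters a list. The deposited values are positions only, so peaks could not be filtered by strength.

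Peaks were merged at an overlap of 1 bp in Python 3.11.15 with pandas 2.3.3, numpy 2.4.6 and scipy 1.17.1, checked with bedtools 2.31.1 (0 of 725 regions differed) and tested on simulated lists. Shares carry exact Clopper-Pearson 95% intervals for counting error. Distances are bases between region and peak. With 1 library per group no test was made. Regions were named by rule: up to 5 windows of 100 kb with most regions, the first 10 with both vehicle peaks, the 5 farthest from fulvestrant peaks and 5 on each side of the rule's edge. The other regions named were chosen after their values were seen. The set, lists and rules were chosen with earlier results of these data known. The planned comparisons by sequence motif, base composition and gene position needed mm9 sequence and annotation and were not run.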

Additional observations from a re-analysis of the deposited data

How the results depend on the processing

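The number of regions stayed between 565 and 777 under the other ways of joining peaks, of treating vehicle lists and of leaving out regions near fulvestrant peaks. It rose to 1167 when the wild-type fulvestrant list was not consulted and to 8369 when the mutant one was not, settings chosen after seeing the data. Without the wild-type fulvestrant list the share with a wild-type vehicle peak was 6.77%. Without the mutant one, the share with a mutant vehicle peak was 8.46%, the median tamoxifen offset 13 bp and the share on the X chromosome 2.17%, since 7644 regions with a mutant fulvestrant peak then enter. The share with a fulvestrant peak within 1 kb fell to 15.0% when peaks up to 200 bp apart were joined, and was 7.59% for distances up to 200 bp and 58.2% up to 10 kb. Windows with 2 or more regions numbered 18, against 8 without regions near fulvestrant peaks and 113 with windows of 1 Mb. The other 26 values stayed within 1.5 times the count or within the interval of the share or median. Among them were those without the 2 regions joined by vehicle peaks (also chosen after seeing the data). Those for chromosomes 1 to 19 and X only could not move, because no region of the set lay elsewhere. No paired analysis was possible because each group had 1 library and no result came from a test. The alternatives that needed mm9 sequence or annotation were not run. Unknown depth limits every statement on absence from a list.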

Other observations

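A few regions of the set lay close to each other. The 2 nearest were chr9:67964206-67964410 and chr9:67966015-67966244, with 1604 bp between them, followed by chr4:98503373-98503607 and chr4:98512548-98512795, with 8940 bp between them. No other pair was within 10 kb. Both tamoxifen peaks had the same position in 15 regions, and 13 regions were 200 bp wide because all their peaks coincided.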
